A study of Mus musculus with 4 samples.

Results

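The comparison described here set the hippocampus of 4-month-old mice carrying 1 knockout allele of Rp58 (hetero-KO) against the hippocampus of wild-type (WT) mice of the same age. Rp58 is the older name of Zbtb18. Each genotype was represented by 1 one-colour Agilent array, on which RNA from 3 independent samples had been mixed, so every value below is a description of a pair of pools with no replicate and no test. A gene was included when its probe was well above background on both arrays, by the scanner software's own test, which left 28144 of the 36983 genes on the array. Of these, 19864 carried a symbol found in the RefSeq table. A corresponding pair of pools from 18-month-old mice, WT and hetero-KO, gave a genotype difference measured on other arrays and other RNA, with 27350 genes measured. The labels give the older groups as 18 months, 1.5 years or a range of 12 to 18 months, and name neither sex nor strain nor the removed part of the gene.

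A level is the processed signal divided by the 75th percentile of the array's non-control spots, so a level of 1 is the brightness of a spot brighter than 75% of them. A difference is the log2 of the hetero-KO level over the WT level; 1 stands for 2-fold. Pairs of levels are given with WT first, for the younger pools of 4 months and then, where shown, for the older pools of 18 months. Levels of different genes come from different probes and are not compared with one another. For some genes the order of the 4 pools is described, such as both WT pools above both hetero-KO pools. The share of all genes with such an order is not given, so the order only describes the genes named. In pooled bulk tissue, fewer cells of a type and less RNA per cell cannot be told apart.

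Zbtb18 encodes a transcriptional repressor with a BTB domain, which recruits corepressors, and zinc fingers, which bind DNA at an extended E-box. During development it acts in newborn excitatory neurons of the cortex and hippocampus, where it is known to repress proneural genes such as Neurog2 and Neurod1 and the Id family of differentiation inhibitors. Expression persists in excitatory neurons of the adult. The hippocampus itself is built from CA1, CA2 and CA3 pyramidal cells, dentate granule cells, inhibitory interneurons and glia. It lies against the choroid plexus, ependyma and meninges, and near the thalamus, striatum and cortex.

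The pools of 4 months were alike for most genes. The median difference over all measured genes was −0.02 with an SD across genes of 0.30, and 71.7% of genes lay within 0.2 of 0. In the hetero-KO pool, 200 genes were at least 2-fold higher, which is 0.711% of those measured, and 185 were at least 2-fold lower, or 0.657%. At 1.5-fold, 512 genes (1.82%) were higher and 772 (2.74%) were lower. Of the 2-fold differences, 51.9% were higher in hetero-KO, and this share was 72.3% when the background was corrected with normexp instead. The WT and hetero-KO arrays had a 75th percentile of 1986 and 2124, and 81.9% and 79.5% of their spots were well above background.

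Large differences lay mostly among dim genes. Of the 7036 genes with the lowest levels 4.01% were past 2-fold, and of the 7036 with the highest 0.0853%. Among the 9962 genes with a mean level of at least 1, only 7 were 2-fold higher and 2 were 2-fold lower. Another measured probe existed for 32 of the 200 higher genes and 22 of the 185 lower genes. Another probe was past 1.5-fold in the same direction for 13 and 5 of them, respectively. The SD of the difference over repeated spots of a probe had a median of 0.024, and over different probes of a gene a median of 0.099, so that probes of a gene differed more than its spots did. The scanner software gave a median spot error of 0.20.

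**Figure D1:**
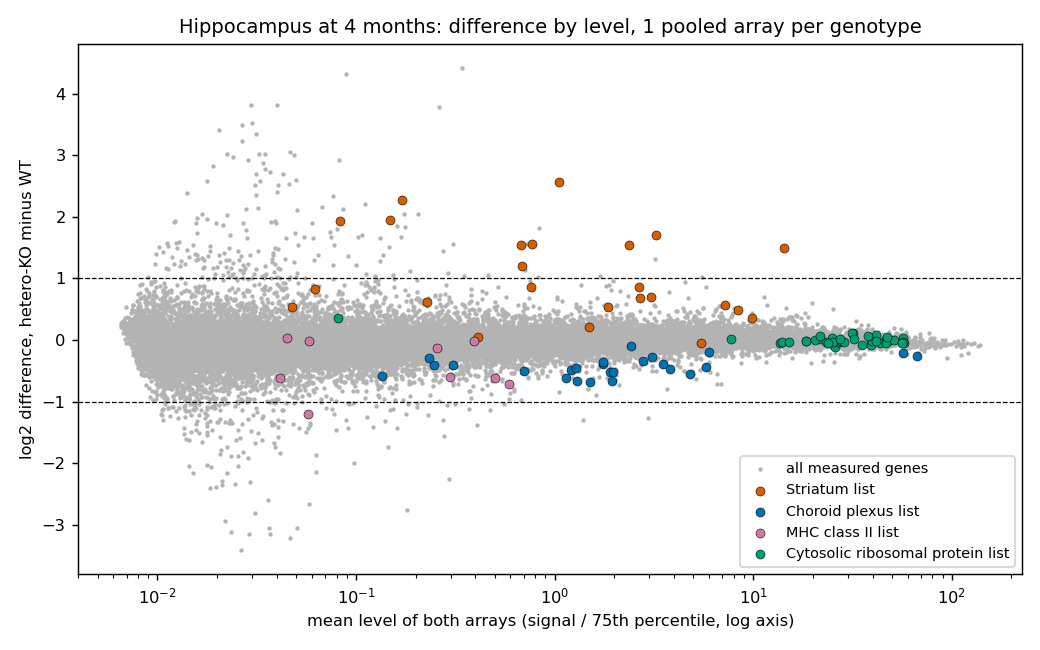
Log2 difference between hetero-KO and WT at 4 months against the geometric mean level of both arrays (log axis), 1 grey point per measured gene, with members of 4 gene lists in colour and dashed lines at 2-fold. The scatter is widest among dim genes; 10 striatum genes lie above the upper line, the choroid plexus genes all lie below 0, and the ribosomal protein genes stay close to 0.

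Markers of the cell types that define the labelled tissue were above background, as were 28144 of the 36983 genes on the array. Such counts cannot check what the tissue was. Markers of CA1 pyramidal cells were measured for 13 of 13 genes on the array, of CA3 cells for 15 of 15, of CA2 cells for 11 of 11 and of dentate granule cells for 22 of 22. Markers of neighbouring regions were measured as well, 24 of 24 for the striatum and 25 of 26 for the thalamus and habenula, so both pools held RNA of genes that are usually highest outside the hippocampus.

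Zbtb18 itself had a level of 17.4 against 15.2 in the younger pools and 18.7 against 21.3 in the older ones. The difference was −0.20 at 4 months and 0.19 at 18 months, with opposite signs. The 4-month difference was no larger than the median spot error of 0.20 over all measured genes. No spot error was computed for the 18-month difference. Its single probe lies on chromosome 1 from 179380753 to 179380812 (build mm9). A probe outside the deleted stretch reports nothing on the deletion, and no source used here gives that stretch.

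Among genes that Zbtb18 is known to repress, 1 stood apart. Neurog2, a proneural transcription factor, had a level of 0.0452 against 0.132 in the younger pools and 0.0419 against 0.0979 in the older ones. The hetero-KO pool was thus higher at both ages, by 1.55 and 1.22, and WT and hetero-KO levels did not overlap across ages. The probe lies on chromosome 3 at 127337805 to 127337864 (mm9), and the 4-month difference was 1.06 with normexp. The other 13 measured members of the list of Id and proneural genes were within 1.5-fold. Id1, Id2, Id3 and Id4, which block proneural factors, had differences of −0.16, 0.03, −0.22 and −0.05, and Neurod1 had −0.19. The list had a median of −0.03. Corepressors and DNA methyltransferases, the enzymes that silencing by such repressors draws on, had 0 of 20 members past 1.5-fold (median −0.03, range −0.17 to 0.14). Of all genes 4.56% were past 1.5-fold in either direction.

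The largest list median was that of genes of the striatum, the region of medium spiny neurons that is dominated by dopamine and opioid signalling. Of the 24 striatum markers, all measured, 23 were higher in hetero-KO at 4 months. At least 1.5-fold higher were 16 of them, and at least 2-fold higher 10, against 1.82% and 0.711% of all genes. The list median was 0.84, beside −0.02 for all genes. At 18 months 11 of 23 measured members were higher, beside 49.4% of all genes measured at that age, and the median was −0.00.

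Penk, the precursor of enkephalin, had levels of 8.48 against 24 in the younger pools and 10.6 against 13.6 in the older ones, with differences of 1.5 and 0.36. The 4-month hetero-KO pool was the highest of the 4 pools. The probe lies on chromosome 4 at 4060735 to 4060794 (mm9).

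Receptors of the striatal pathways followed. The adenosine receptor Adora2a, of the indirect pathway, went from 0.0780 in WT to 0.376 in hetero-KO at 4 months, and had 0.0581 and 0.107 at 18 months. The dopamine receptor Drd1, of the direct pathway, had 0.450 against 1.32 in the younger pools and 0.327 against 0.242 in the older ones. Drd2, the dopamine receptor of the indirect pathway, differed by less, with 0.0394 and 0.0572 at 4 months and a difference of 0.54. Markers of both pathways were thus higher in the 4-month hetero-KO pool, and in 23 of the 24 listed genes, all but Lrrc10b, that pool was the highest of the 4.

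Rgs9, which ends G-protein signalling downstream of dopamine and opioid receptors, had 1.79 against 5.82 in the younger pools and 1.21 against 1.44 in the older ones. Its difference of 1.70 was shared by 3 of 4 other measured probes past 1.5-fold. Tac1, the precursor of substance P, had 1.39 against 4.04 in the younger pools and 1.06 against 1.16 in the older ones. Of its other probes, 1 of 2 measured went the same way past 1.5-fold, and the mean over all its probes was 0.45 rather than 1.54. Pdyn, the precursor of dynorphin and also a dentate granule marker, had 1.99 against 3.61 in the younger pools and 2.51 against 2.72 in the older ones. Ppp1r1b, which encodes DARPP-32, was higher by 0.57 and Pde10a, a phosphodiesterase of medium spiny neurons, by 0.69. Rxrg and Rarb, retinoid receptors of the striatum, were higher by 1.54 and 0.86, and Ido1, an enzyme of tryptophan breakdown that is also induced by interferon, by 1.94. Lrrc10b was the only member that was not higher, at −0.06, and Six3, a transcription factor of striatal progenitors, was at 0.05.

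**Figure D2:**
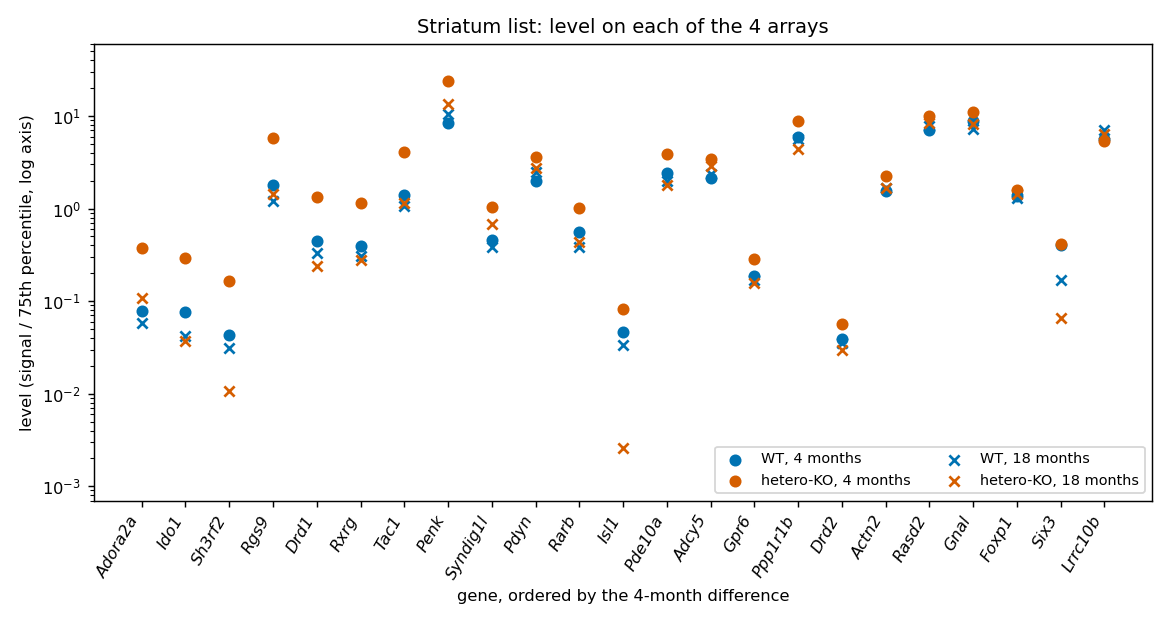
Level of 23 striatum genes (log axis) on each of the 4 arrays, 1 point per array, with genes ordered by their difference at 4 months; circles are 4 months, crosses 18 months, blue WT and orange hetero-KO. The orange circle is the highest of the 4 symbols for 22 of the 23 genes drawn, all but Lrrc10b; Isl1 failed the background test in hetero-KO at 18 months.

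Interneuron and cortical genes were also higher, by less. Markers of GABA interneurons were higher for 22 of 26 members with a median of 0.25, against 44.3% of all genes that were higher at any size. Past 1.5-fold was 1 member, Tac1, beside 4.56% of all genes. Slc32a1, the vesicular GABA transporter, had 16.6 against 21.5 in the younger pools and 18.5 against 16.8 in the older ones. Gad2, which makes GABA, had 5.66 against 6.89 in the younger pools and 5.10 against 4.73 in the older ones. The 2 genes were higher in the 4-month hetero-KO pool than in any other pool, by 0.37 and 0.28 over WT of that age. Pvalb, Sst and Npy, which mark interneuron classes, had differences of 0.07, 0.18 and −0.12. At 18 months the interneuron list had a median of −0.02. Striatal projection neurons use GABA as well, and the part of the striatum genes in this shift was not tested.

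Markers of the cortex and amygdala had a median of 0.17, with 13 of 21 higher, beside 44.3% of all genes. Past 1.5-fold, 4 were higher and 1 was lower, against 1.82% and 2.74% of all genes. Grp, a peptide of amygdala and cortical neurons, had 0.443 against 1.57 in the younger pools and 0.449 against 0.572 in the older ones. Meis2, a transcription factor of striatal and amygdala neurons, had 1.38 against 2.55 in the younger pools and 1.64 against 1.51 in the older ones, and 3 of its 4 other measured probes showed the same past 1.5-fold. Rspo2 was higher by 0.76. Cyp26b1, which degrades retinoic acid, ran the other way, from 1.95 to 1.12 at 4 months and from 1.77 to 1.18 at 18 months.

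The thalamus and habenula list differed in the opposite direction from the striatum list. Of 25 measured members, 22 were lower in hetero-KO at 4 months, 7 of them at least 1.5-fold, against 55.7% and 2.74% of all genes, and the median was −0.38. At least 1.5-fold higher were 2 members, Ano2 and Tac1, the latter also on the striatum list. At 18 months 14 of 22 measured members were higher, with a median of 0.07. Tac2, the precursor of neurokinin B and a habenular peptide, had 2.18 against 0.888 in the younger pools and 0.547 against 0.853 in the older ones. Gng8, a G-protein subunit of the medial habenula, had 0.658 and 0.252 at 4 months, against 0.265 and 0.227 at 18 months. Prkcd, a kinase of thalamic neurons, had 4.87 against 2.79 in the younger pools and 1.71 against 1.43 in the older ones. In these 3 genes the WT pool of 4 months was the highest of the 4 pools. Tcf7l2, which specifies thalamic neurons, had 3.13, 2.25, 0.606 and 0.621 in WT and hetero-KO at 4 months and WT and hetero-KO at 18 months, and Tnnt1 had 5.44, 5.02, 0.696 and 0.797. Both 4-month pools were thus above both 18-month pools in these genes. The habenular receptor Gpr151 was the list's largest difference, at −3.15, with a level of 0.0868 in WT and 0.00975 in hetero-KO and not well above background at 18 months; it was −1.38 with normexp.

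Markers of neighbouring regions therefore differed by genotype at 4 months, higher for 23 of 24 striatum genes and lower for 22 of 25 thalamus genes, and the part that tissue from these regions has in other differences was not tested. Defining striatum markers were well above background in both pools of 4 months, and Isl1 was the only one of 24 that was not on both arrays of 18 months.

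Choroid plexus genes were lower in the hetero-KO pool without exception. The choroid plexus is the epithelium that secretes cerebrospinal fluid. All 25 measured members were lower at 4 months, 5 of them at least 1.5-fold, with a median of −0.44 and a range of −0.68 to −0.10. Of all genes 55.7% were lower and 2.74% at least 1.5-fold lower at 4 months. All 25 were also lower at 18 months, 22 at least 1.5-fold, with a median of −0.79; of all genes 50.6% were lower and 2.56% at least 1.5-fold lower at that age. Folr1, the folate receptor of that epithelium, had 5.82 against 3.98 in the younger pools and 7.12 against 3.81 in the older ones. Sostdc1, a secreted BMP antagonist, had 2.44 against 1.54 in the younger pools and 3.01 against 1.56 in the older ones. In these 2 genes both WT pools lay above both hetero-KO pools. Ttr, the thyroid hormone carrier transthyretin, had 73.8 against 61.3 in the younger pools and 88.0 against 78.6 in the older ones, a smaller difference of −0.27 and −0.16.

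Ependymal cilia genes, of the ciliated cells that line the ventricles, gave the same direction. At 4 months 20 of 20 were lower (median −0.42, 3 past 1.5-fold), and at 18 months 19 of 20 (median −0.37). The shares of all genes that were lower were 55.7% and 50.6%, and at 4 months 2.74% were at least 1.5-fold lower. Ccdc153 had 2.07 against 1.37 in the younger pools and 2.32 against 1.70 in the older ones. Hydin, a component of motile cilia, had 0.139 and 0.0878 by its brightest probe, a difference of −0.66, whereas the mean over all its probes, one of which was above background in hetero-KO only, was 0.19. Ion and solute transporters of epithelia had a median of −0.39 with 19 of 22 lower. Of these, Ano1, a chloride channel, had 0.652 against 0.353 in the younger pools and 0.703 against 0.395 in the older ones. Cftr, another chloride channel, was lower by its brightest probe at −1.29 and higher at 0.48 in the mean over its probes, of which the other 2 were not measured on both arrays.

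Genes of antigen presentation, border macrophages, neutrophils and vessels had medians below 0 at 4 months and above 0 at 18 months. Class II MHC genes present antigen on macrophages and dendritic cells. Of 11 on the list 9 were measured, and 8 of these were lower at 4 months, 5 of them at least 1.5-fold. Of all genes 55.7% were lower and 2.74% at least 1.5-fold lower. The list median was −0.61, or −0.32 with normexp. The same 9 genes had a median of 0.23 at 18 months. H2-Ab1 had 0.758 against 0.461 in the younger pools and 0.719 against 0.865 in the older ones. Cd74, the invariant chain, had 0.369 against 0.242 in the younger pools and 0.312 against 0.366 in the older ones. H2-Eb1 and H2-Aa gave −0.62 and −0.61, so that these 4 genes lay between −0.72 and −0.61. Ciita, the transactivator of these genes, was at −0.02, and H2-DMa, which loads peptides, at −0.02.

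Markers of border macrophages, which live in meninges and around vessels, were lower for 8 of 12 (median −0.26) at 4 months, when 55.7% of all genes were lower, and higher for 11 of 12 (median 0.65) at 18 months, when 49.4% were higher. Mrc1, the mannose receptor, had 0.242 against 0.123 in the younger pools and 0.111 against 0.148 in the older ones. Ms4a7, a macrophage membrane protein, had a difference of −0.62 at 4 months and 0.53 at 18 months. The 4 members that were higher at 4 months included Lyve1 at 0.37, Cd163 at 0.17 and F13a1 at 0.03. For Cd163 the mean over its probes was −0.40. Neutrophil and monocyte markers were lower for 10 of the 10 measured genes of 15 on the list, with a median of −0.16, which was −0.03 with normexp, and had a median of 0.54 at 18 months. S100a8 and S100a9, the calprotectin subunits, led them. S100a9 had 0.265 against 0.0794 in the younger pools and 0.301 against 0.825 in the older ones, and S100a8 had 0.0781 against 0.0219, then 0.0998 against 0.245. For both genes the hetero-KO pools were the lowest and the highest of the 4. Homeostatic microglia genes were within 1.5-fold for 22 of 22 members, with a median of 0.07. Of all genes only 4.56% were past 1.5-fold in either direction, so this count is near that over all genes.

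Meningeal fibroblast genes had a median of −0.27, with 20 of 22 lower at 4 months and 18 of 22 higher at 18 months (median 0.43). Of all genes 55.7% were lower at 4 months and 49.4% higher at 18 months. Slc22a6, an organic anion transporter, had 0.441 against 0.308 in the younger pools and 0.326 against 0.565 in the older ones. Endothelial genes were lower for 19 of 22 (median −0.22), with Pecam1, an adhesion molecule of vessels, at 0.289 and 0.143, Cldn5, of the tight junctions, at 3.14 and 2.38, and Vwf at 2.42 and 1.73. Mural cell genes were lower for 13 of 15 (median −0.17). At 18 months the endothelial and mural medians were 0.14 and 0.13. None of these 3 lists had a member at least 1.5-fold higher at 4 months, beside 1.82% of all genes.

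**Figure D3:**
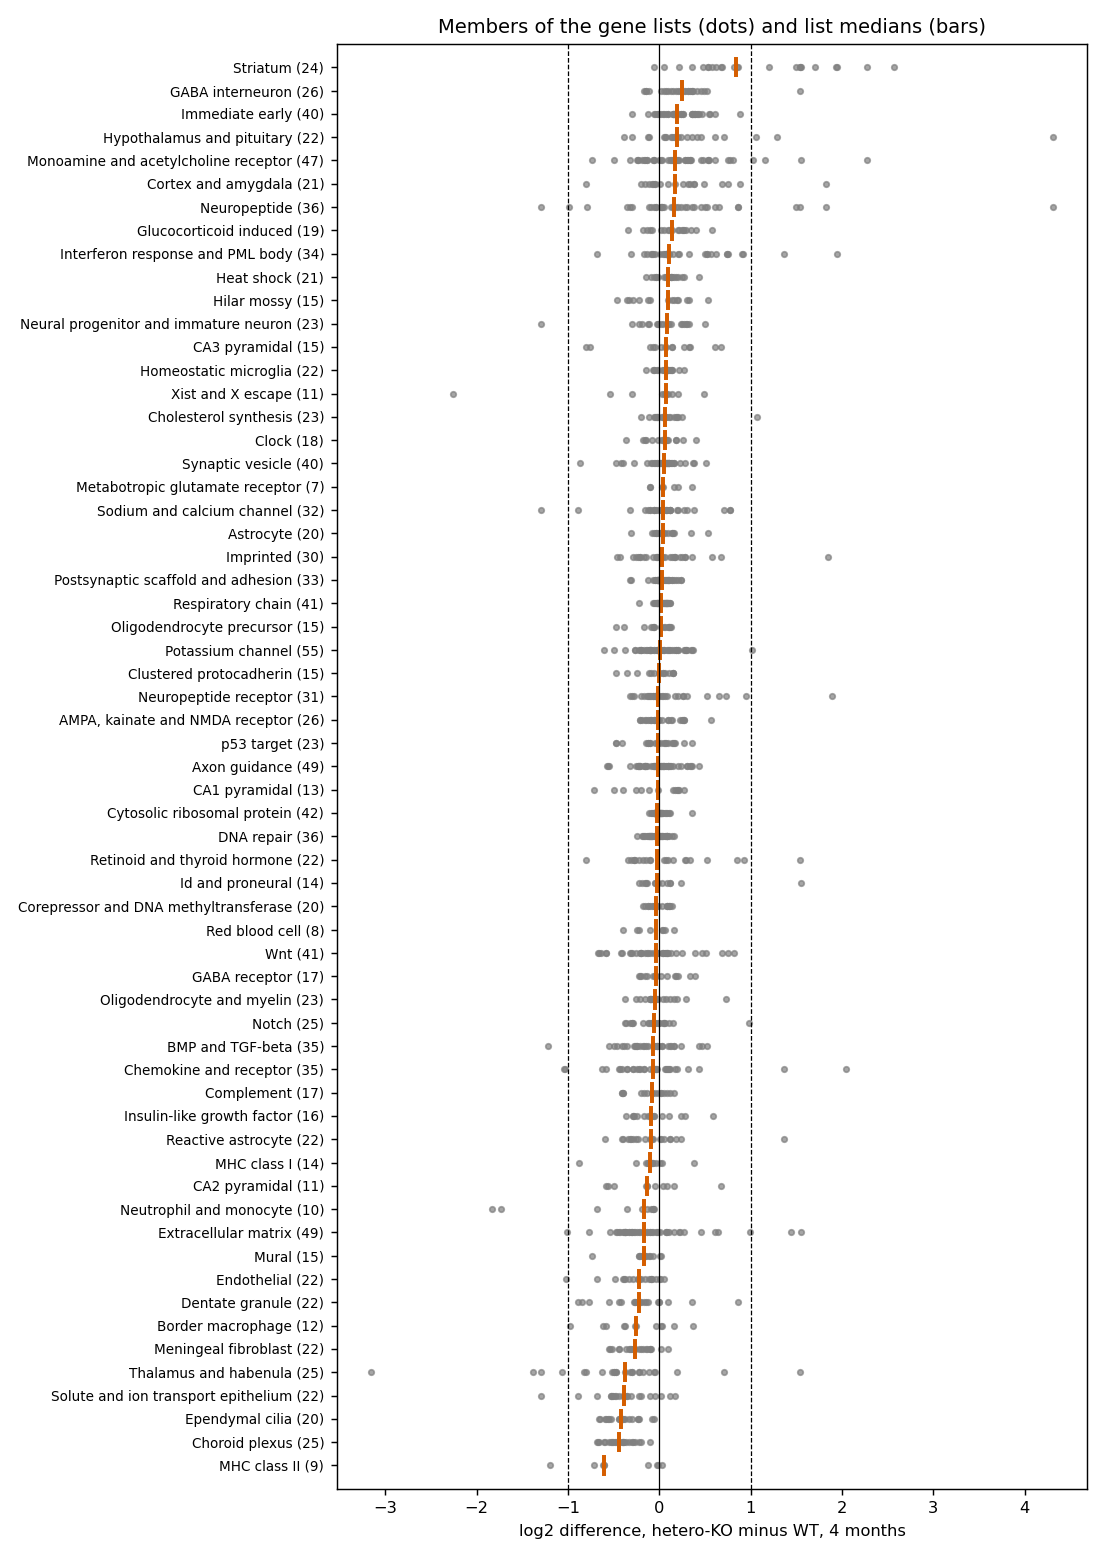
Log2 difference between hetero-KO and WT at 4 months for the members of each gene list with at least 7 measured members (grey dots, number in brackets), ordered by the list median (orange bar), with dashed lines at 2-fold. The striatum list, at 0.84, lies apart from the others at the top, and class II MHC at −0.61, choroid plexus at −0.44 and ependymal cilia at −0.42 lie at the bottom.

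Within the hippocampus, 19 of 22 dentate granule cell genes were lower at 4 months, beside 55.7% of all genes, with a median of −0.22 at that age and −0.15 at 18 months. At least 1.5-fold lower were 3 of them at 4 months and higher 1, against 2.74% and 1.82% of all genes. The higher one was Pdyn, at 0.86, also on the striatum list, and Sema5b was higher by 0.36. Scube1, a secreted protein, had 2.21 against 1.19 in the younger pools and 1.94 against 1.27 in the older ones. Dsp, the desmosomal protein desmoplakin, had 1.41 against 0.788 in the younger pools and 1.46 against 0.900 in the older ones. Npnt, an integrin ligand, had 0.107 against 0.0626 in the younger pools and 0.106 against 0.0624 in the older ones. In each of these 3 genes both WT pools lay above both hetero-KO pools. Calb1, Bdnf and Maml2, from the same list, were within 0.02 of 0.

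CA1 pyramidal cell genes had a median of −0.02, and 1 of 13 was past 1.5-fold, beside 4.56% of all genes. That gene was Wfs1, which encodes the endoplasmic reticulum protein wolframin and marks dorsal CA1. Its level was 8.45 against 5.15 in the younger pools and 10.3 against 6.13 in the older ones, differences of −0.71 and −0.75. CA3 genes had a median of 0.07, with Plagl1 and Cpne7 higher by 0.68 and 0.61, and Prkcd and Iyd lower. The mean over the probes of Plagl1 was 0.03. CA2 genes had a median of −0.14, with 1 of 11, Adcy5, past 1.5-fold; Adcy5 is also on the striatum list.

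Immediate early genes, transcription factors and effectors that neurons induce with activity, were higher for 33 of 40 members (median 0.20), with 2 at least 1.5-fold higher. Over all genes 44.3% were higher and 1.82% at least 1.5-fold higher. Egr2 had 1.34 against 2.48 in the younger pools and 1.32 against 1.66 in the older ones. Ier5 had 5.68 against 8.35, then 7.07 against 9.22, and Junb had 5.96 against 8.04, then 7.06 against 8.41. In these 3 genes hetero-KO was above WT at each age. The list median at 18 months was 0.11, with 31 of 40 higher. Glucocorticoid-induced genes were higher for 14 of 19 at 4 months and 19 of 19 at 18 months (medians 0.14 and 0.27). Sgk1, a kinase of this response, had 9.62 and 14.3 at 4 months by its brightest probe, and its mean over probes was −0.04. Interferon response genes had a median of 0.11 with 26 of 34 higher, 8 of them past 1.5-fold, and 1 lower past 1.5-fold. The higher ones included Cxcl10, a chemokine, at 0.0566 and 0.146, and Usp18 at 0.0827 and 0.156. At 18 months 26 of the 34 members of this list were higher, 1 of them at least 1.5-fold, with a median of 0.09.

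Genes of basic cell functions were nearly equal in both pools. Cytosolic ribosomal proteins had a median of −0.02 over 42 genes and respiratory chain subunits of 0.02 over 41, with 0 past 1.5-fold in either list. Of all genes 4.56% were past 1.5-fold in either direction. These lists had median levels of 31.7 and 23.9, and of the 7036 genes with the highest levels only 0.0853% were past 2-fold. DNA repair (36 genes), p53 targets (23), postsynaptic scaffold and adhesion proteins (33), AMPA, kainate and NMDA receptors (26) and GABA receptors (17) also had 0 members past 1.5-fold. Their medians lay between −0.04 and 0.03. Astrocyte and oligodendrocyte precursor genes had 0 of 20 and 0 of 15 past 1.5-fold, and oligodendrocyte and myelin genes 1 of 23.

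Single genes that were abundant and differed outside these groups included Hrh3, the presynaptic histamine receptor, on chromosome 2 at 179834245 to 179834304 (mm9). It had 3.86 against 7.85 in the younger pools and 2.94 against 6.05 in the older ones, differences of 1.02 and 1.04, so that both hetero-KO pools lay above both WT pools. Asic4, an acid-sensing channel relative, had 1.42 against 2.76, then 1.06 against 1.81, and Cpne5, a calcium-binding copine, 3.27 against 6.25, then 4.06 against 6.09. Pgam2, a muscle-type glycolytic enzyme, had 1.19 against 2.43, then 1.48 against 2.42. At both ages these 4 genes were higher in hetero-KO. Arpp21, a phosphoprotein of the striatum and cortex, had 2.02 and 5.04 at 4 months by 1 probe, and 0 of its 5 other measured probes were past 1.5-fold. Rbm3, a cold-inducible RNA-binding protein, was lower at 4 months with 8.84 and 5.39, and 2 of 3 other probes were lower past 1.5-fold; at 18 months it had 8.31 and 7.83.

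Most of the largest single differences were of genes that were dim in at least 1 pool. Prl, the pituitary hormone prolactin, had 0.0200 against 0.398 in the younger pools and 0.226 against 0.0709 in the older ones. Gh, growth hormone, had 0.0109 against 0.0267 in the younger pools and 0.161 against 0.0238 in the older ones, and its 4-month difference of 1.29 was 0.43 with normexp. Both pituitary hormones were higher in the 4-month hetero-KO pool and lower in the 18-month one. Pomc, another pituitary hormone precursor, had 0.317 against 0.366, then 0.447 against 0.468, and Cga, the shared subunit of pituitary glycoprotein hormones, was not well above background on both 4-month arrays. Melk, a kinase of dividing cells, had 0.0114 and 0.0923 at 4 months and did not pass the background test at 18 months. The homeobox genes Rhox2c and Rhox5 of the X chromosome had differences of 3.52 and 3.01, and the innate immune receptor Tlr8 of 3.05; with normexp these were 1.55, 1.20 and 1.69. At the lower end, Fcrl1, a receptor of B cells, had 0.110 and 0.0123, and Cep128, a centriole protein, had 0.146 and 0.0175, with 0 of 2 other measured probes past 1.5-fold.

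Further genes passed the background test in either pool but not in both. For some of these, though not all, the difference was given as a bound, 380 with hetero-KO higher and 1194 with WT higher. The bound was taken against the lowest level well above background on the dim array. By these bounds 161 genes were higher and 189 lower by 2-fold or more. The largest such bounds upwards were of Olfr120 and Olfr645, odorant receptors, at least 32.8-fold and at least 27.3-fold, of the cardiac junction gene Myzap, at least 27.2-fold, and of Prl7a1, a placental prolactin relative, at least 21.4-fold. None of these 4 was well above background at 18 months. Il1f9, an interleukin-1 relative, was at least 13.8-fold lower and the kinase gene Sbk2 at least 13.6-fold lower, and both were likewise not well above background at 18 months.

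Sex-linked genes differed between the pools. Eif2s3y, a translation factor gene of the Y chromosome, had 0.669 in WT at 4 months, did not pass the background test in hetero-KO of that age, and had 1.29 and 1.32 at 18 months. The bound was at least 100-fold, and for Uty and Ddx3y, also on the Y, at least 19.8-fold and at least 15.8-fold. Kdm5d was measured by 6 probes, and 5 of them were not well above background in the 4-month hetero-KO pool, where 3 of those 5 were well above background in WT. The remaining probe, the only one measured on both arrays, had 0.0875 and 0.0840 and did not follow the others. Xist, which is transcribed from the inactive X of females, had 0.163 and 0.229 at 4 months and did not pass the background test at 18 months. Eif2s3x, the X-linked copy, had 0.640 and 0.134 by its brightest probe at 4 months and 1.03 and 0.987 at 18 months, which followed Eif2s3y, while its other measured probe had 0.113 and 0.134. Of the genes past 2-fold, 7 of 200 higher and 7 of 185 lower were on the X or Y chromosome, or 3.50% and 3.78%, beside 3.84% of all measured genes. Genotype and the makeup of the pools in Y-linked transcripts cannot be told apart at 4 months.

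Among genes that lie near Zbtb18 on chromosome 1, a larger share than over all genes was past 1.5-fold, which was not tested. These neighbours were looked at after the values had been seen. Within 10 Mb of the Zbtb18 probe, 14 of 269 measured genes were higher and 12 were lower by 1.5-fold or more at 4 months. That is 9.67%, against 4.91% of 1405 genes elsewhere on chromosome 1 and 4.49% of 26469 on other chromosomes, and against 4.56% over all. At least 1.5-fold apart in the same direction at both ages were 11 of 260 genes within 10 Mb (4.23%), 8 of 1348 elsewhere on the chromosome (0.593%) and 171 of 25508 on other chromosomes (0.670%); over all genes it was 0.701%. Within 2 Mb the share was 4 of 36 (11.1%). Of 222 windows of 10 Mb with at least 50 genes, the one from 170 to 180 Mb of chromosome 1 ranked first by this share, with 10 of 144 genes.

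Of the nearest genes, 2 were among the largest differences of the whole comparison. Gm29856, a predicted gene 10.5 kb from the Zbtb18 probe (179391247 to 179391306), had 0.0739 against 1.58 in the younger pools and 0.0782 against 2.09 in the older ones. The transcript AK156859, 25.6 kb away (179406323 to 179406382), had 0.0705 against 0.966, then 0.0864 against 1.65. In both, the hetero-KO pools were far above the WT pools at each age, by 4.41 and 4.74 and by 3.77 and 4.26. Other near genes differed by less, and some were nearly equal. The dim transcripts AK048867 and LOC102642028, 21.3 and 23.8 kb away on the other side, had 4-month differences of −0.18 and −0.12. Adss, at 313 kb on the side of Gm29856, had 1.87 against 1.98, then 1.90 against 1.85. Hmga2-ps1, 616 kb away on the side of AK048867, was higher in hetero-KO at both ages, by 0.95 and 0.76. Catspere1, 400 kb away, had differences of 0.76 and 0.12, and Gm15423, 523 kb away, of −0.45 and −0.09.

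Farther out, genes differed in either direction. Slamf8, a receptor of macrophages, had 0.0127 against 0.0329 in the younger pools and 0.0214 against 0.0572 in the older ones. Lower were Adamts4, a protease that cuts matrix proteoglycans, with 4.58 against 1.90, then 5.37 against 2.72, Vangl2, a planar polarity gene, with 1.03 against 0.669, then 0.996 against 0.612, and Efcab2, with 0.829 against 0.468, then 0.626 against 0.4. In all 4 the WT pools of both ages lay on one side of the hetero-KO pools of both ages. For Adamts4, 1 of 2 other probes was also lower past 1.5-fold and the remaining one was higher by 0.42, giving a mean over probes of −0.59. The distances from Zbtb18 to these 4 genes run from 1.03 to 6.19 Mb. With normexp, 7 genes within 10 Mb rather than 11 were past 1.5-fold the same way at both ages. The part that position beside the altered allele has in these differences was not tested.

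**Figure D4:**
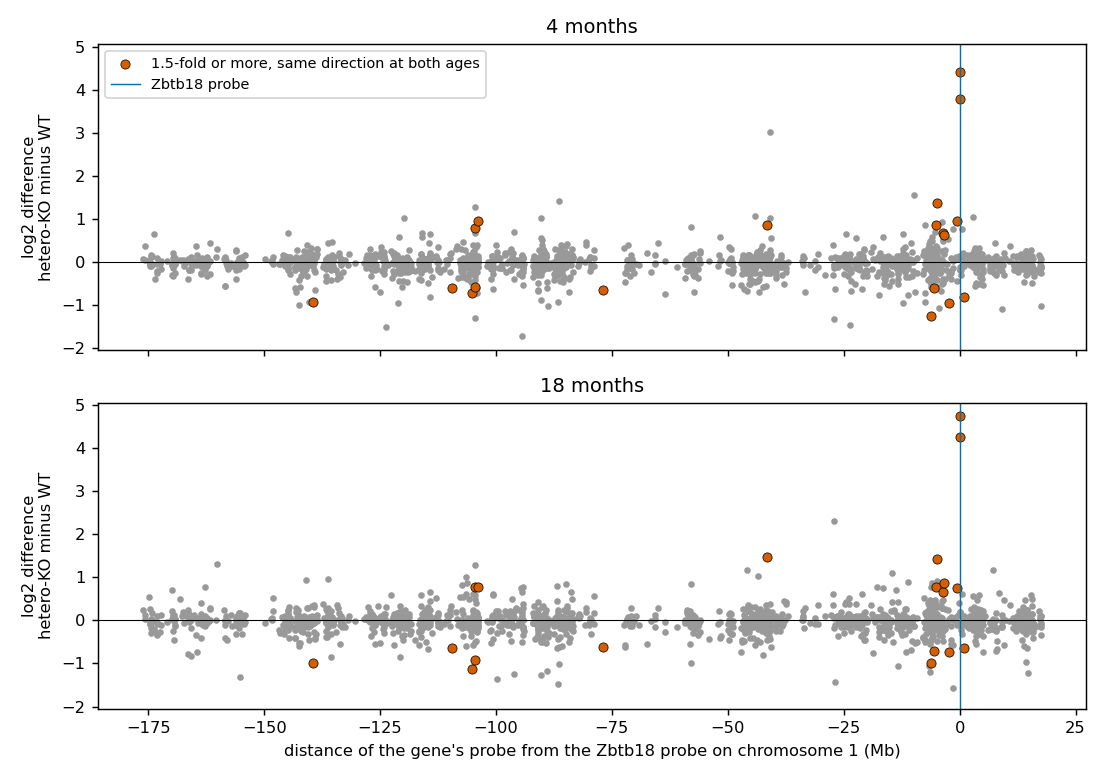
Log2 difference between hetero-KO and WT for genes on chromosome 1 against the distance of their probe from the Zbtb18 probe (blue line), at 4 months (top) and 18 months (bottom), 1 point per gene; orange points were at least 1.5-fold apart in the same direction at both ages. Of the 19 orange points, 11 lie within 10 Mb of Zbtb18, and the 2 highest are Gm29856 and AK156859.

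The 18-month pair of pools shares no array with the 4-month pair. Over the 27117 genes measured on all 4 arrays, 61.9% had the same direction at both ages, and the differences correlated across genes with a Pearson r of 0.19 and a Spearman rho of 0.28, values that describe genes and not replicates. Of the genes at least 2-fold higher at 4 months, 147 were measured at 18 months, and 24 (16.3%) were at least 1.5-fold higher there too, while 21 were at least 1.5-fold lower. For the genes at least 2-fold lower, 26 of 154 (16.9%) were lower again past 1.5-fold and 14 were higher. Over all genes measured at 18 months, 2.12% were at least 1.5-fold higher and 2.56% lower. Altogether 190 genes were at least 1.5-fold apart in the same direction at both ages, 59 higher and 131 lower, and 93 were so in opposite directions.

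Several secreted and matrix genes were in the set that was higher at both ages. Fbln2, a basement membrane fibulin, had 0.425 against 1.25 in the younger pools and 0.404 against 1.03 in the older ones. Gpc3, a glypican, had 0.167 against 0.453, then 0.148 against 0.373, and Col12a1, a fibril-associated collagen, had 0.0541 against 0.108, then 0.0541 against 0.119. In these 3 genes both hetero-KO pools lay above both WT pools by the brightest probe. In the mean over probes the 4-month difference of Gpc3 was 0.81 rather than 1.44, and that of Col12a1 was 0.45 rather than 0.99. Igf2os, the antisense transcript of Igf2, had 0.0845 against 0.304, then 0.0925 against 0.387, while Igf2 itself was at −0.29. Hes1, a Notch effector that opposes proneural genes, had 0.111 against 0.219, then 0.139 against 0.293. Grem1, a secreted BMP antagonist, was lower at both ages, with 0.353 against 0.152, then 0.410 against 0.215, and so was the transcription factor Zic4, with 0.414 against 0.198, then 0.389 against 0.176. As a whole the 49 extracellular matrix genes had a median of −0.17, with 5 at least 1.5-fold higher and 2 lower, so that Fbln2, Gpc3 and Col12a1 stood against the direction of their list.

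**Figure D5:**
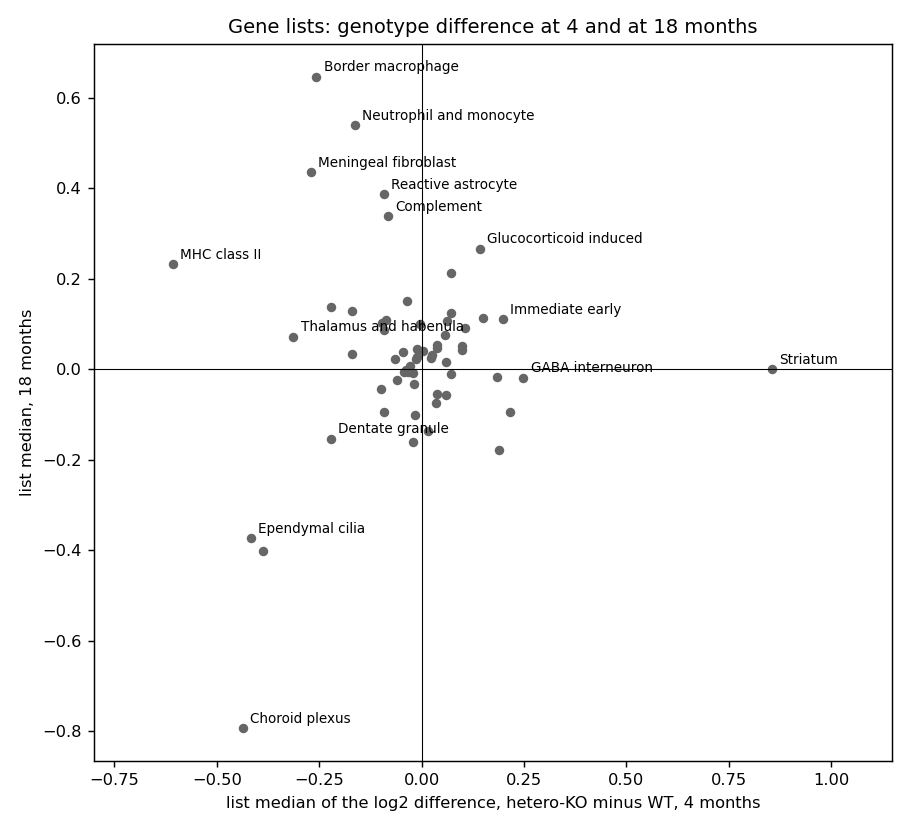
List median of the log2 difference between hetero-KO and WT at 4 months (horizontal) and at 18 months (vertical), 1 point per gene list with at least 7 members measured at both ages, over those members. Choroid plexus and ependymal cilia lie below 0 on both axes, the striatum list lies to the right at 0.86 and near 0 at 18 months, and border macrophage, meningeal fibroblast and class II MHC lists lie to the left of 0 and above it.

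The core of the sequence that Zbtb18 is known to bind, ACATCTG or CAGATGT on the other strand, contains the E-box CANNTG. It was searched in windows from 250 bases before to 50 bases after the RefSeq start sites (GRCm38.p6). It occurred in 4.43% of all 32851 windows and in 3.28% of the 19441 windows of measured genes. The share was 5.17% (6 of 116 windows) for genes at least 2-fold higher at 4 months and 4.21% (4 of 95) for genes at least 2-fold lower. For genes past 1.5-fold at both ages it was 2.56% (1 of 39 windows) of the higher and 8.99% (8 of 89) of the lower ones. Of the genes in these 4 sets, those with a match that are described above were Fbln2, Tac1 and S100a9, the last with the match 31 bases after the start site. Among the genes lower at both ages a match was also held by Egfl6, a secreted protein, with differences of −1.08 and −0.72. The windows of Fbln2, Tac1 and Egfl6 are shown because the match lies before the start site and they are members of the sets just counted, with the matching bases in capitals: Fbln2 at chr6:91212514-91212813 on the plus strand, Tac1 at chr6:7554811-7555110 on the plus strand and Egfl6 at chrX:166585667-166585966 on the minus strand, all in GRCm38.p6 and written 5′ to 3′ along the gene.
Fbln2: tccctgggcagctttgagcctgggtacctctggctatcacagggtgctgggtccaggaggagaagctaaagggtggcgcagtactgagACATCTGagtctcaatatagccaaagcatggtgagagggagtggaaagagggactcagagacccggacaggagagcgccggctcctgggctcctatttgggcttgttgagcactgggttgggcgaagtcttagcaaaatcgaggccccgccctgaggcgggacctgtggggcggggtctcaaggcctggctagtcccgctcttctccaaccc
Tac1: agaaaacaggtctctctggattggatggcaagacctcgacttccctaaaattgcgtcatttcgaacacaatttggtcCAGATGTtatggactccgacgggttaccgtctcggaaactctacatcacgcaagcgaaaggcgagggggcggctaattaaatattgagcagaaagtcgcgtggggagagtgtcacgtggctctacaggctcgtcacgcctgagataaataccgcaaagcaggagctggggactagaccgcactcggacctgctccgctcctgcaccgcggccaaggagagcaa
Egfl6: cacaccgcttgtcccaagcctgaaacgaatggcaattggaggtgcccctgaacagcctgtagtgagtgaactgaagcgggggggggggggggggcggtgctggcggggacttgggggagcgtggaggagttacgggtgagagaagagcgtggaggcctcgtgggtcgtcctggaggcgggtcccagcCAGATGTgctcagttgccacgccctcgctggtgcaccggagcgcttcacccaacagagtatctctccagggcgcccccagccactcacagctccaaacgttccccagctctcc
The match began 162 bases before the start site in Fbln2, 173 before it in Tac1 and 63 before it in Egfl6. A match of letters is a description and not a binding site, and few windows stand behind each share. These letters were not in the Neurog2 window. Egfl6 was chosen after its values were seen.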

How the data were processed

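Total RNA of the hippocampus was measured on 4 one-colour Agilent arrays with 1 slide barcode, 1 array per genotype and age; per the labels' protocols, 3 RNA samples were mixed for each and 200 ng was labelled with Cy3. The values in the deposited scanner files are linear spot intensities; per the submitters' processing notes and the file headers they were made with Agilent Feature Extraction 11.5.1.1 (protocol GE1_1105_Oct12), which subtracts background and replaces dim values by surrogates. The authors' deposited table holds a linear ratio, the processed signal over a constant per array (1986.25 for the WT and 2124.61 for the hetero-KO array of 4 months), and served as an alternative. Its 2 columns of 18 months equal no scanner file by a constant and were not used.

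From the processed signal of each array, spots with outlier marks were left out, spots of a probe were averaged, and levels were taken over the 75th percentile of all non-control spots. A probe was measured where 50% or more of its spots passed the scanner's background test. A gene took the probe with the highest mean level over both 4-month arrays, picked before the background test, and the same probe at 18 months. It counted as measured only where that probe was measured on both 4-month arrays. The number of arrays limits the precision, and 0 spots were saturated. Probe coordinates are those of the file headers' build, mm9 (NCBI37). Names came from a RefSeq table of GRCm38.p6: 33881 probes matched by accession, 9468 by symbol and 490 by synonym, and 12766 of 56605 kept the file's name.

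With 1 array per side no test was run; genes past 2-fold and 1.5-fold were counted, and 63 gene lists were described by counts and medians. Named genes were Zbtb18, the 12 largest differences in each direction, the 12 largest among genes with a mean level of at least 1, the 8 largest bounds, and in each list the 3 largest in each direction and those past 2-fold; other genes named were chosen after their values were seen, and some genes are not reported here. The members and lists were chosen with earlier results of these data known, and 121 of 1457 genes are in more than 1 list. Calculations, quantile normalization included, used Python 3.11.15 and pandas 2.3.3, and normexp used limma 3.58.1 in R 4.3.3. The fold counting was tested on simulated data. Alternatives changed the scaling, the background correction, the probe rule, the filter and the fold.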

Additional observations from a re-analysis of the deposited data

Results flagged for a closer look

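Some genotype differences had opposite directions at 4 and at 18 months. Each rests on 1 pool per group, and none of these differences between ages was tested. Prl had a log2 difference of 4.31 at 4 months and −1.67 at 18 months, and Gh, another pituitary hormone, had 1.29 and −2.75; with normexp background correction the 4-month values were 2.92 and 0.43. Among striatum genes, Sh3rf2, a scaffold protein, had 1.93 and −1.56. Of the neutrophil genes, S100a8 had −1.84 and 1.29, and S100a9 had −1.74 and 1.46. Ccl8, a chemokine of macrophages, had −1.03 and 1.57, and −0.20 at 4 months with normexp. The medians of 3 lists also changed direction: border macrophage genes had −0.26 and 0.65, meningeal fibroblast genes −0.27 and 0.43, and class II MHC genes −0.61 and 0.23.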

How the results depend on the processing

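No paired analysis was possible because each group holds 1 array, and for the same reason no replicate could be left out. The 2-fold counts of 4 months, 200 genes higher and 185 lower in hetero-KO, became 73 and 28 with normexp background correction, 852 and 1294 with no filter on dim probes, 7 and 2 at a mean level of at least 1, and 512 and 772 at 1.5-fold. Under an alternative chosen after seeing the data, which kept genes whose other measured probes were all past 1.5-fold the same way, they were 11 and 2; fewer genes have another probe to count. The genes within 10 Mb of Zbtb18 past 1.5-fold at both ages, 11, became 7 with normexp, also chosen after seeing the data. For the other moves the cause was not tested. Of 369 single-gene differences, 2 that were past 1.5-fold changed sign, both in the mean over a gene's probes, Hydin to 0.19 and Cftr to 0.48. Counting differences of any size, 31 genes changed sign in some setting, 25 of them in that mean. A further 64 moved by more than the spot error in that setting and 69 with normexp, and 0 with quantile normalization, median scaling or the deposited values. The deposited values are the same signal over a constant per array. Median scaling shifts every gene alike, and the median over all genes went from −0.02 to 0.01, beside a median spot error of 0.20. Neither of these settings could therefore test the single genes. Of 63 list medians, 4 moved with normexp and 3 with the mean over probes; 0 of those at least 0.1 from 0 changed sign, and 15 nearer to 0 did in some setting. Signal over background limits the dim genes, which hold most of the 2-fold differences.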

Other observations

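Signalling families outside the groups above differed in single members. Of 41 measured Wnt pathway genes, 3 were at least 1.5-fold higher in hetero-KO at 4 months and 3 lower, with a median of −0.04. Over all genes the shares were 1.82% and 2.74%. Frzb, a secreted Wnt antagonist, had levels of 0.586 against 1.03 in the younger pools and 0.661 against 1.09 in the older ones. Wnt10a had 0.585 against 0.939 in the younger pools and 0.791 against 1.18 in the older ones, and Wnt2, a ligand, had 0.680 against 0.437, then 1.17 against 0.706. In Frzb the hetero-KO pools lay above the WT pools of both ages. Of 35 genes of BMP and TGF-beta signalling, 1 was past 1.5-fold, and of 25 Notch genes likewise 1.

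Monoamine and acetylcholine receptors were at least 1.5-fold higher for 8 of 47 members and lower for 1, against 1.82% and 2.74% of all genes. The list median was 0.18, and at 18 months it was −0.02. Besides the dopamine, adenosine and histamine receptors described above, Htr1d, a serotonin receptor, had 0.0278 against 0.0618 in the younger pools and 0.0237 against 0.0188 in the older ones, and Chrnb4, a nicotinic subunit of the habenula, had 0.173 against 0.104, then 0.134 against 0.123. Of 31 measured neuropeptide receptors 15 were higher, 4 of them at least 1.5-fold, and 16 lower, with 0 past 1.5-fold and a median of −0.01. The higher ones included Sstr1, a somatostatin receptor, with 0.540 against 1.04 in the younger pools and 0.555 against 0.545 in the older ones, and Oxtr, the oxytocin receptor, with 0.295 against 0.488, then 0.509 against 0.575. Nts, the precursor of neurotensin, had 0.387 against 0.704 in the younger pools and 0.362 against 0.159 in the older ones. For Htr1d, Sstr1 and Nts the 4-month hetero-KO pool was the highest of the 4.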
